A study of Mus musculus with 10 samples.

Results

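The 10 genes described here mark dendritic cells or their maturation and were followed in mouse melanomas, each matched by symbol to the rows of the deposited expression table. The table holds 24421 genes, of which 12926 were above 0 in at least 1 tumor, and all 10 members were among these. The members are the identity genes Flt3, Zbtb46, Batf3, Xcr1 and Cd209a and the maturation genes Ccr7, Fscn1, Cd83, Cd80 and Cd86.

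YUMMER1.7 cells, a Braf-mutant mouse melanoma line, were injected under the skin of the flank (100000 cells per mouse) in WT mice or in mice with a whole-body deletion of Siah2, a RING-type ubiquitin ligase. Whole tumors were collected at day 10, and poly(A) RNA was sequenced from 5 WT and 5 Siah2 KO tumors, 1 library per tumor. The same tumor line grew in both groups, so the genotype is that of the host and applies to all host cells, not to dendritic cells alone. The strain label of the first sample is C57Bl6, and in the later labels its number counts up from sample to sample. The paper describes the mice of the study in general as males a few weeks old. The comparison asks which transcripts differ between tumors of WT and of Siah2-deficient hosts.

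Dendritic cells take up tumor antigen, carry it to lymph nodes and present it to T cells. Conventional dendritic cells depend on the receptor Flt3 and express the transcription factor Zbtb46, and they divide into a Batf3-dependent lineage that bears Xcr1 and cross-presents antigen to CD8+ T cells (cDC1) and a second lineage that mainly presents to CD4+ T cells (cDC2). Upon maturation they gain the lymph node homing receptor Ccr7, the actin-bundling protein fascin (Fscn1), the surface protein Cd83 and more of the costimulatory ligands Cd80 and Cd86. Few of these genes belong to dendritic cells alone in a whole tumor: macrophages also express Cd80 and Cd86, endothelium also expresses Zbtb46, naive T cells carry Ccr7, and stromal and tumor cells can make Fscn1.

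The values are scores, meaning read counts normalized between libraries by the authors and rounded to whole numbers, and they summed to between 15414758 and 15527530 in WT tumors and between 15605574 and 16503134 in tumors labelled KO. Siah2 itself ranged from 391 to 428 in WT and from 490 to 747 in tumors labelled KO. It was thus higher in tumors of hosts labelled as Siah2 KO (limma adjusted p = 0.00104). A score over the whole gene does not tell reads of the deleted exons from the others. The deletion is that of the host, and the injected line was the same in both groups, so reads of tumor cells are also in this score. As the score cannot check the label, these are called KO-labelled tumors, and every direction below rests on the labels. The columns KO4 and KO5 could not be tied to a single sample title and are named as columns. Melanocyte genes such as Pmel, Tyr, Dct, Mlana and Sox10 are listed at 0 in all 10 columns, but so are Rpl26 and Rpl30, ribosomal protein genes that every cell uses, and a 0 was therefore taken only as listed.

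The members did not move together. Flt3, Zbtb46, Cd209a, Ccr7 and Fscn1 were lower in KO-labelled tumors, Cd86 and Cd80 were higher, and Batf3, Xcr1 and Cd83 did not pass the test. Thus 7 of the 10 passed (limma adjusted p under 0.05 over 12926 genes), where 35.6% of all genes tested passed. The 5 lower members stand against 18.2% of all genes and the 2 higher members against 17.5%. For 5 members the groups did not overlap, 3 lower and 2 higher, as was the case for 24.8% of all genes. The median log2 difference of the members was -0.40, against -0.00056 over all genes tested. In a bulk sample, fewer cells of a type and less RNA per cell cannot be told apart.

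**Figure D1:**
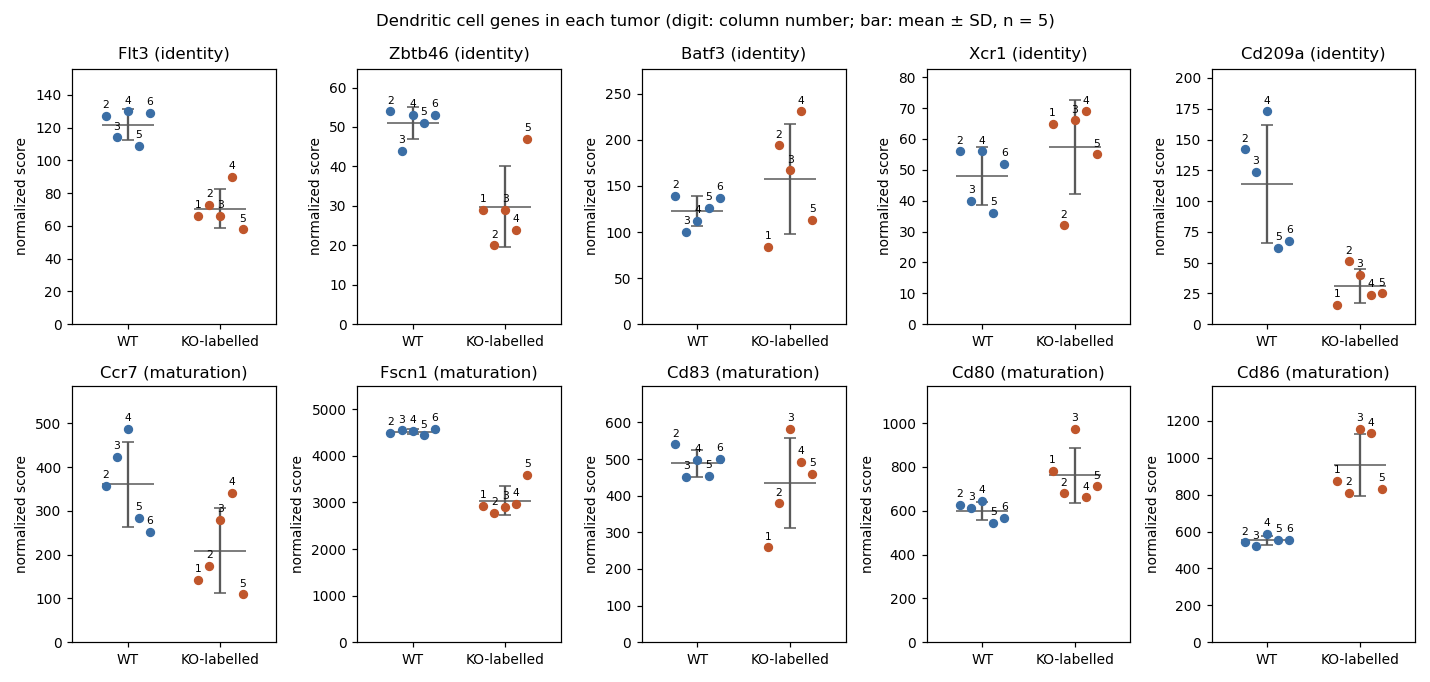
Normalized score (y axis, from 0) of each of the 10 genes in each of the 5 WT and 5 KO-labelled tumors; points are tumors, digits are column numbers, and bars are mean ± SD. The KO-labelled points lie wholly below the WT points for Flt3, Cd209a and Fscn1 and wholly above them for Cd80 and Cd86.

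Among the identity genes, Flt3, which encodes the receptor for the growth factor that sustains dendritic cell development, lies on chromosome 5 (mm10, 147330741 to 147400489, minus strand). Its scores were 127, 114, 130, 109 and 129 in WT replicates 2 to 6 and 66, 73, 66, 90 and 58 in columns KO1 to KO5. Every KO-labelled tumor was below every WT tumor. On the log2(score + 1) scale used for all differences, Flt3 fell by 0.79 ± 0.14 (SE, limma adjusted p = 0.000743), a 1.73-fold lower level. The WT tumors were tightly grouped, with an SD of 9.63 around a mean of 121.8, and the KO-labelled mean was 70.6 ± 12.1 (SD, n = 5).

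Zbtb46, a transcription factor of conventional dendritic cells that restrains alternative myeloid fates, lies on chromosome 2 (mm10, 181387762 to 181459426, minus strand) and had the lowest mean score of the members over the 10 tumors. The scores were 54, 44, 53, 51 and 53 in WT tumors and 29, 20, 29, 24 and 47 in KO1 to KO5. In 4 of the KO-labelled tumors the score was below the WT range, while KO5 lay inside it. The level was 1.75-fold lower (log2 difference -0.81 ± 0.21 SE, limma adjusted p = 0.00984). Zbtb46 lost its call when only tumors with numbers 2 and 3 were fitted (limma adjusted p = 0.0828, and 0.0725 with a replicate block). An exact permutation test of each gene, adjusted over all genes, gave it an adjusted p of 0.0514, just outside the threshold.

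Since endothelium also expresses Zbtb46, blood endothelial markers were read beside it. Of 12 measured, 2 rose and 4 fell, and their summed score was 4808 to 5401 in WT and 3838 to 4917 in KO-labelled tumors. Over all genes tested 17.5% were called higher and 18.2% lower, and the counts of every marker list below stand against these shares. Cdh5, the cadherin of endothelial junctions, chosen after its values were seen, was 2524, 1651, 1731, 1504 and 2797 in KO1 to KO5 and between 2828 and 3403 in WT tumors. The KO-labelled tumor with the most Zbtb46, KO5, also had the most Cdh5, and KO1 and KO3, equal in Zbtb46, were next in both. In WT tumors the orders differed, with the most Zbtb46 in replicate 2 and the most Cdh5 in replicate 6, and the least in replicates 3 and 5. Other endothelial genes went the opposite way, with Pecam1 higher (from 645 to 1032) and Emcn higher (from 93.6 to 213.2), whereas Vwf (from 213.8 to 121) and Robo4 (from 120 to 79.6) were lower. Seen after the values were known, Kdr was also highest in KO5 (244) among KO-labelled tumors. Tie1 (125), Cldn5 (32), Erg (31), Egfl7 (190) and Emcn (129) were instead lowest in KO5, and the remaining markers were neither. The part of endothelium in the lower Zbtb46 was not tested.

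Batf3, the transcription factor on which cDC1 development depends, lies on chromosome 1 (mm10, 191097847 to 191108945, plus strand). Its scores were 139, 100, 112, 126 and 137 in WT tumors and 84, 194, 167, 231 and 113 in KO1 to KO5. The KO-labelled tumors were spread on both sides of the WT range, with 3 above it, 1 below it and 1 inside. The log2 difference was 0.28, with a 95% interval from -0.23 to 0.79, and did not pass (limma adjusted p = 0.377). T cells also express Batf3, and the T cell markers were higher in KO-labelled tumors, as given below.

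Xcr1, the chemokine receptor that cDC1 use to approach Xcl1-producing lymphocytes, lies on chromosome 9 (mm10, 123852315 to 123862029, minus strand). It was low, with scores of 56, 40, 56, 36 and 52 in WT tumors and 65, 32, 66, 69 and 55 in KO1 to KO5. Of the KO-labelled tumors, 3 exceeded the WT range and KO2 fell below it. The log2 difference of 0.23 had an interval from -0.26 to 0.71, so these data do not separate a lower from a higher level (limma adjusted p = 0.453). Clec9a, the receptor for dead cells on cDC1, chosen after its values were seen, gave a like picture, with a mean of 67 in WT and 81.6 in KO-labelled tumors, a difference that did not pass (limma adjusted p = 0.402).

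Cd209a, a C-type lectin of cDC2 and monocyte-derived dendritic cells in mice, lies on chromosome 8 (mm10, 3743397 to 3748984, minus strand) and differed most of all members. The scores were 142, 124, 173, 62 and 68 in WT tumors and 16, 51, 40, 24 and 25 in KO1 to KO5. The WT tumors fell into a higher set (replicates 2, 3 and 4) and a lower pair (replicates 5 and 6), and even the lower pair exceeded every KO-labelled tumor. The level was 3.56-fold lower (log2 difference -1.83 ± 0.34 SE, limma adjusted p = 0.0013). As Cd209a belongs to a cluster of closely related lectin genes, reads that fit several of its copies could have been divided or lost in counting. Mgl2, another lectin of cDC2 and of some macrophages, was also lower, going from 1065 ± 433.3 to 462 ± 295.4 (mean ± SD, n = 5, limma adjusted p = 0.0172), although its groups overlapped.

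Among the maturation genes, Ccr7, which guides mature dendritic cells and naive T cells to lymph nodes, lies on chromosome 11 (mm10, 99144196 to 99155077, minus strand). Its scores were 358, 423, 487, 284 and 252 in WT tumors and 143, 174, 280, 341 and 109 in KO1 to KO5. KO3 and KO4 lay within the WT range and the other KO-labelled tumors below it. The level was 1.82-fold lower (log2 difference -0.87 ± 0.29 SE, limma adjusted p = 0.0313). This call was the least steady of the members: it was lost without WT replicate 2 (limma adjusted p = 0.060), WT replicate 3 (0.0736), WT replicate 4 (0.0805), Siah2 KO replicate 1 (0.0608), Siah2 KO replicate 2 (0.0643) or column KO5 (0.0548), while the log2 difference stayed between -1.07 and -0.66. Ccr7 also did not pass an exact permutation test of each gene (adjusted p = 0.112).

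Other genes of mature dendritic cells, of cDC2 or, for Itgae, of cDC1 were read beside Ccr7 for the order of the tumors. They were chosen after the values were seen. In WT tumors, Ccr7 ran from highest to lowest in the order of replicates 4, 3, 2, 5 and 6. Ccl22, a chemokine of mature dendritic cells (481, 407, 331, 329 and 223 in that order), and Mgl2 took the same place in 5 of 5 WT tumors, Ccl17 and the integrin Itgae in 3 of 5 and Cd209a in 1 of 5. In KO-labelled tumors the places matched in 1 of 5 for Ccl22, Itgae and Cd209a, in 2 of 5 for Mgl2 and in 3 of 5 for Ccl17. The orders were thus the same in WT tumors for Ccl22 and Mgl2 alone among these 5 genes, and for none of them in KO-labelled tumors. These are descriptions of 5 tumors in each group and were not tested.

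Naive and central memory T cells also carry Ccr7, and their genes went in both directions. Of 8 measured, 4 rose and 2 fell, and their summed score was higher in every KO-labelled tumor (2185 to 3155) than in the WT tumors (1730 to 1970). Il7r rose 3.31-fold and the transcription factor Klf2 1.50-fold, while the transcription factors Tcf7 (from 511.8 to 400.6) and Bach2 (from 78.4 to 51.4, named after its values were seen) fell as Ccr7 did. The part of these cells in the lower Ccr7 was not tested. T cell markers were also higher, with 6 of 9 up and none down, among them Cd8a (from 190 to 491), Cd8b1 (from 85.2 to 270.6), Cd3d (from 136 to 333.8) and Cd3g (from 158.2 to 334.6). Of 10 B cell markers, 3 were measured and did not pass, and Cd79a and Ms4a1 are listed at 0.

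Fscn1, which encodes fascin, bundles actin in the processes of mature dendritic cells and lies on chromosome 5 (mm10, 142960343 to 142973185, plus strand). It was by far the most abundant member, with scores of 4499, 4553, 4539, 4444 and 4577 in WT tumors and 2935, 2785, 2908, 2975 and 3596 in KO1 to KO5. The WT tumors differed by little, with a coefficient of variation of 1.15%, and every KO-labelled tumor was below them. The level was 1.49-fold lower (log2 difference -0.58 ± 0.074 SE, limma adjusted p = 9.93e-05). Per kilobase of annotated exon, the mean score of Fscn1 in WT tumors was 1501, against 182.4 for Ccr7, the other gene of migrating dendritic cells.

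Most fibroblast markers moved in the same direction as Fscn1. Of 10 measured, 8 fell and 2 rose, and the summed score was 151771 to 173622 in WT and 76930 to 106470 in KO-labelled tumors. Among those that fell were the protease Fap (4.23-fold), the growth factor receptor Pdgfrb (2.56-fold), the collagen chain Col1a2 (1.74-fold) and periostin, Postn (2.67-fold). Within the KO-labelled group, KO2 had the highest summed fibroblast score (106470) but the lowest Fscn1 (2785), which was seen after the values were known. Of 12 melanoma cell markers, 5 were measured and 2 fell, S100b (from 80.2 to 12.4) and Ednrb (from 109.8 to 41.4). The part of these cells in the lower Fscn1 was not tested.

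Cd83, a surface protein of mature dendritic cells that B and T cells also express when activated, lies on chromosome 13 (mm10, 43784775 to 43803132, plus strand). Its scores were 540, 451, 498, 454 and 501 in WT tumors and 259, 379, 582, 493 and 460 in KO1 to KO5. KO1 and KO2 were below the WT range, KO3 was above it and the others were inside. The log2 difference of -0.22 (interval from -0.59 to 0.16) did not pass (limma adjusted p = 0.35). Leaving out KO1, the lowest tumor, brought the difference to -0.04.

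Cd80 and Cd86, the ligands through which antigen-presenting cells engage Cd28 and Ctla4 on T cells, both lie on chromosome 16 (mm10, Cd80 at 38455561 to 38496335, plus strand, and Cd86 at 36603869 to 36666081, minus strand). Cd86 scores were 541, 520, 587, 556 and 555 in WT tumors and 874, 810, 1156, 1133 and 832 in KO1 to KO5. Cd80 scores were 626, 613, 646, 545 and 568 in WT tumors and 783, 679, 973, 661 and 711 in KO1 to KO5. For both genes the lowest KO-labelled tumor was above the highest WT tumor, narrowly so for Cd80 (661 against 646).

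Cd86 was 1.72-fold higher (log2 difference 0.78 ± 0.11 SE, limma adjusted p = 0.00017), and Cd80 was 1.26-fold higher (log2 difference 0.33 ± 0.11 SE, limma adjusted p = 0.027). The call of Cd80 was lost without WT replicate 5 (limma adjusted p = 0.0665), WT replicate 6 (0.0623) or Siah2 KO replicate 3 (0.0502), and when scores were scaled to the same total in every column (0.0524). The call of Cd86 was kept each time 1 tumor was left out, with a limma adjusted p of at most 0.00084.

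Macrophages also bear these ligands, and macrophage and monocyte markers were mostly higher. Of 14 measured, 8 rose and 2 fell, and the summed score was 61353 to 69383 in WT and 66367 to 103196 in KO-labelled tumors, with KO4 the highest. The Fc receptor Fcgr1 rose 1.69-fold and the co-receptor Cd14 1.65-fold, while the chemokine receptor Cx3cr1 fell 6.22-fold. KO3 and KO4, which had the highest Cd86, also had the highest Fcgr1 (3518 and 4341) and Cd14 (845 and 1015), which was seen after the values were known. Cd80 differed from this, as KO4 was its lowest KO-labelled tumor, and among WT tumors replicate 4 had the highest Cd86 (587) with the lowest Cd14 (407). Read after the values were known, Cd68, C1qa, C1qb, C1qc, Ly6c2 and Lyz2 were also highest in KO3 and KO4. Adgre1, Csf1r, Mertk, Mrc1 and Cx3cr1 were among the markers that were not, and KO3 had the lowest Mertk (860). The part of macrophages in the higher Cd86 and Cd80 was not tested.

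**Figure D2:**
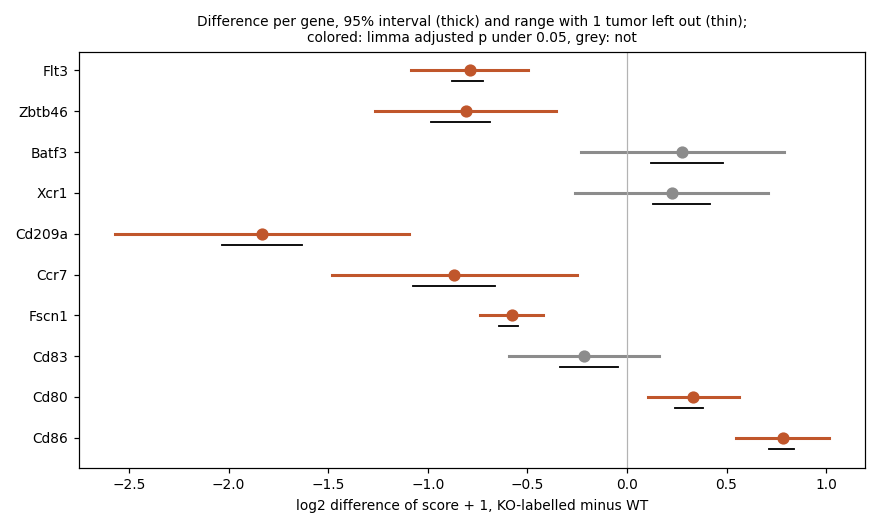
Log2 difference of score + 1 between KO-labelled and WT tumors for each gene (x axis), with the 95% interval (thick line) and the range with 1 tumor left out (thin line); colored genes passed the test and grey genes did not. Cd209a lies farthest from 0 at -1.83, Cd86 highest at 0.78, and the intervals of Batf3, Xcr1 and Cd83 span 0.

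Within a tumor, the ratio of a pair of members does not depend on how libraries were scaled to each other. The ratios of 4 pairs were compared with an exact two-sided permutation test over the 10 tumors, whose smallest possible p is 0.00794, adjusted over the 4 pairs. The Cd80/Cd86 ratio was 1.16, 1.18, 1.10, 0.98 and 1.02 in WT tumors and 0.896, 0.838, 0.842, 0.584 and 0.855 in KO1 to KO5. Thus Cd86 exceeded Cd80 in every KO-labelled tumor and the groups did not overlap, with a log2 ratio lower by 0.45 (difference -0.45 ± 0.12 SE, exact permutation p = 0.00794, adjusted p = 0.0317).

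The Xcr1/Cd209a ratio sets a cDC1 gene against a gene of cDC2 and monocyte-derived cells. It was 0.399, 0.328, 0.328, 0.587 and 0.768 in WT tumors and 3.88, 0.635, 1.63, 2.80 and 2.15 in KO1 to KO5. In every KO-labelled tumor except KO2, Xcr1 exceeded Cd209a, and in no WT tumor did it. The log2 ratio was higher by 2.06 ± 0.51 SE (exact permutation p = 0.0159, adjusted p = 0.0317). Of the other cDC2 and monocyte-derived cell genes measured, 4 rose and 2 fell. Most of the shift in the Xcr1/Cd209a ratio was that of Cd209a (log2 difference -1.83), as Xcr1 (0.23) did not pass. With 1 tumor left out, this ratio stayed between 1.80 and 2.45 higher and the Cd80/Cd86 ratio between 0.49 and 0.34 lower (log2 differences -0.49 to -0.34), with an adjusted p of 0.0317 to 0.0635 for both; with 9 tumors a single pair at the smallest possible p reaches no less than 0.0635.

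The other ratios did not pass. Ccr7/Fscn1, the pair of genes of migrating dendritic cells, had a mean log2 ratio of -3.69 ± 0.39 against -3.97 ± 0.77 (WT against KO-labelled, SD, n = 5, exact permutation p = 0.492, adjusted p = 0.656). Flt3/Zbtb46, the pair shared by conventional dendritic cells, had means of 1.24 ± 0.10 and 1.26 ± 0.64 (SD, n = 5, exact permutation p = 0.976). The Flt3/Zbtb46 ratio was narrow in WT tumors, from 2.12 to 2.56, and wide in KO-labelled tumors, from 1.23 in KO5 to 3.64 in KO4.

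**Figure D3:**
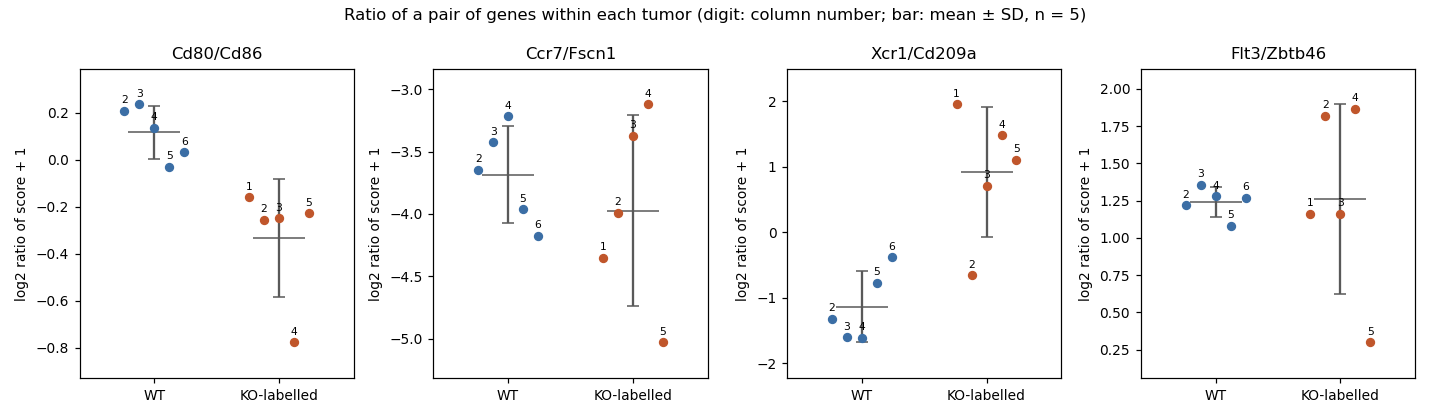
Log2 ratio of score + 1 of 4 pairs of genes within each tumor (y axis) for 5 WT and 5 KO-labelled tumors; points are tumors, digits are column numbers, and bars are mean ± SD. The Cd80/Cd86 points of the groups are apart, the Xcr1/Cd209a groups overlap only through KO2, and the other pairs overlap widely.

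Relative to the mean, KO-labelled tumors varied more among themselves than WT tumors for every member, as the coefficient of variation was higher in 10 of 10. It ran from 1.15% (Fscn1) to 42.1% (Cd209a) in WT and from 10.5% (Fscn1) to 46.6% (Ccr7) in KO-labelled tumors. Over all genes tested, the median gene-wise SD was likewise 0.225 on the log2 scale against 0.115. In score units the SD of Cd209a was smaller in KO-labelled tumors (14.1 against 47.9 in WT). That of Ccr7 was about equal (97.5 against 96.9), and that of each other member was larger. Among KO-labelled tumors KO4 was the highest for 4 members (Flt3, Batf3, Xcr1 and Ccr7), KO3 for the maturation genes Cd83, Cd80 and Cd86, and KO5 for Zbtb46 and Fscn1. KO2 was the lowest for 4 members, including both Zbtb46 and Xcr1, yet the highest for Cd209a. No single KO-labelled tumor was thus low or high throughout.

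Per kilobase of annotated exon, mean scores in WT tumors ranked Fscn1 (1501) above Cd83 (190), Ccr7 (182.4), Cd80 (161.9) and Cd86 (150.7). Batf3 (76.9) and Cd209a (71.9) were next, and Flt3 (19.7), Xcr1 (10.8) and Zbtb46 (5.99) were lowest. In KO-labelled tumors the order after Fscn1 (1009) was Cd86 (262.5), Cd80 (205.6), Cd83 (169), Ccr7 (105.9), Batf3 (98.8), Cd209a (19.7), Xcr1 (12.9), Flt3 (11.4) and Zbtb46 (3.50). The length used is that of all annotated exons of a gene, so neighbours in these orders, such as Cd83 and Ccr7 or Batf3 and Cd209a in WT tumors, whose scores overlap, are not shown to differ.

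The windows before the starts of Flt3, Cd209a and Fscn1 are shown because these members were lower without overlap between groups. RefSeq windows (GRCm38.p6) of 250 bases before to 50 after a transcript start were matched for 7 of the 10 members. For Zbtb46 and Cd80 that start lies 35038 and 3372 bases inside the gene span given above, at the start of a shorter transcript, so their windows are not described, and 5 members remained, with starts at most 567 bases (Batf3) from that of the gene. These were searched on both strands for TGANTCA (AP-1, the site of Jun and Batf family dimers), GAAA and GAAA with 2 bases between (interferon-stimulated response element), TTCNNNGAA (STAT), GGG and CC with 5 bases between (NF-kB) and GAGGAAGT (PU.1). Capitals mark a match to any of these. The 250 bases before the start are chr5:147400490-147400739 (minus strand) for Flt3, chr8:3748985-3749234 (minus) for Cd209a and chr5:142960105-142960354 (plus) for Fscn1:
Flt3: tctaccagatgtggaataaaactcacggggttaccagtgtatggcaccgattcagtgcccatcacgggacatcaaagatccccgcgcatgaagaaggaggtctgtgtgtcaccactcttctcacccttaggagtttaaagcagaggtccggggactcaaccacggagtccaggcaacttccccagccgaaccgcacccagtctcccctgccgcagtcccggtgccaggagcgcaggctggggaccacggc
Cd209a: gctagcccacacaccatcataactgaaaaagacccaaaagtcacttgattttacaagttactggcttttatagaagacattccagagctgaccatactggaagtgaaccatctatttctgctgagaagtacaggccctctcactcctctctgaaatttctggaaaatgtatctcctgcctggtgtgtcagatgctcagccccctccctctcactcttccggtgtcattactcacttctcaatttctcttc
Fscn1: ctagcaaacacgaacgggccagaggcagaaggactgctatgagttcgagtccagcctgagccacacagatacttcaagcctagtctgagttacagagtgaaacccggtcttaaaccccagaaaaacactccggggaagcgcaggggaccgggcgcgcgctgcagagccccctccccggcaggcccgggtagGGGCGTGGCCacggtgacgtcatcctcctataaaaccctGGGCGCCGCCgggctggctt

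Neither Flt3 nor Cd209a held any of the 5 motifs. The NF-kB letters, found in 50.8% of 32851 mouse windows, were in those of Batf3 and Fscn1, and the STAT letters (8.3% of windows) in that of Batf3. The letters of AP-1 (7.81%), the interferon-stimulated response element (3.44%) and PU.1 (3.2%) were in none of the 5 windows. A match is a description of letters and not a site of binding, and no match says only that these letters are not in the window.

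The ligands, receptors and partners of the members changed more often upward. Among 16 measured from 20 listed, 10 were called higher and 2 lower, where 17.5% of all genes tested were higher and 18.2% lower. Flt3l, the ligand of Flt3, went from a mean of 178.8 to 211.6, which did not pass (limma adjusted p = 0.263), whereas its receptor was lower. Xcl1, the ligand of Xcr1, made by CD8+ T and NK cells, fell 1.57-fold from 88.8 ± 8.14 to 57.2 ± 13.8 (SD, n = 5, limma adjusted p = 0.00797) while Xcr1 did not pass. Ccl19 and Ccl21a, the ligands of Ccr7, are listed at 0 in every tumor, as is the growth factor Csf2. Ackr4, a scavenging receptor that binds the same ligands, was 16, 20, 18, 17 and 25 in WT tumors and is listed at 0 in 4 KO-labelled tumors and at 2 in KO3, so no fold change is given.

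Of the T cell receptors for Cd80 and Cd86, the activating receptor Cd28 rose 1.99-fold, from 109 ± 23.5 to 225 ± 75.8 (SD, n = 5, limma adjusted p = 0.00401), and the inhibitory receptor Ctla4 had means of 277.4 and 303.4 and did not pass (limma adjusted p = 0.714). Cd274, which encodes PD-L1 and binds Cd80 on the same cell, rose 3.59-fold, from 936 to 3425. The related receptor Icos rose 1.76-fold, and Icam2, a ligand that CD209 lectins bind in humans, rose 1.38-fold. Among factors that pair with Batf3 or share its sites, Batf2 rose 3.50-fold, Irf8 1.78-fold, Junb 1.50-fold, Jund 1.25-fold and Jun 1.24-fold, and Batf and Irf4 did not pass (means of 100.8 and 134.4, and of 97.4 and 100.2). Actb, the actin that fascin bundles as filaments, rose 1.22-fold as Fscn1 fell.

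Other genes of the dendritic cell lineages also went in both directions, and Irf8, Irf4 and Cd274 stand in more than 1 list. Of 15 cDC1 genes, 6 rose, 2 fell and 7 did not pass (median log2 difference 0.18). Those with the smallest p were the interferon-induced Ifi205 (2.21-fold higher), the transcription factors Irf8 and Nfil3 (2.08-fold) and the small GTPase Rab7b (1.78-fold), genes that macrophages express as well. Clec4a4, Epcam and Cd207 of the cDC2 and monocyte-derived cell genes are listed at 0, and of the 13 others 4 rose, 2 fell and 7 did not pass (median 0.06), with the Fc receptor chain Fcer1g (1.97-fold), the integrin Itgam (1.49-fold) and Sirpa (1.45-fold) higher and Mgl2, given above, lower. Itgam, Sirpa and Fcer1g are also expressed by macrophages. Of 15 genes common to dendritic cells, 4 rose, 2 fell and 9 did not pass (median 0.13). The smallest p belonged to the integrin Itgax (1.85-fold higher), the transcription factor Spi1 (1.51-fold higher), the receptor Btla (1.78-fold lower) and P2ry10 (1.57-fold higher). These counts stand against 35.6% of all genes tested that passed in either direction. A whole-tumor score does not show which cells made these transcripts.

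Genes of mature and migratory dendritic cells were split almost evenly. Among 31 with values, 12 were called higher, 10 lower and 9 neither (median 0.05, with 35.6% of all genes passing in either direction). Cd274, Il15ra (1.99-fold), which presents interleukin 15, and the costimulatory receptor Tnfrsf9 (2.02-fold) rose, and Tmem176b fell 2.27-fold. T cell and macrophage markers were also mostly higher, as given above, and which cells made these transcripts was not tested. Ccl22, Ccl17 and Il12b were among those that fell and Cd40 and Pdcd1lg2 among those that rose, all 5 named after their values were seen. Of 12 plasmacytoid dendritic cell genes with values (Ly6d is listed at 0), 5 rose and 4 fell (median 0.09). The lineage factor Tcf4 fell 1.77-fold, a gene that other cells also express, and the chemokine receptor Ccr9 fell 1.93-fold, whereas the interferon-induced Bst2 and Irf7 rose 1.87-fold and 1.65-fold. The defining marker Siglech, named after its values were seen, was 42, 38, 66, 37 and 36 in WT tumors and 31, 34, 16, 26 and 21 in KO1 to KO5, without overlap.

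**Figure D4:**
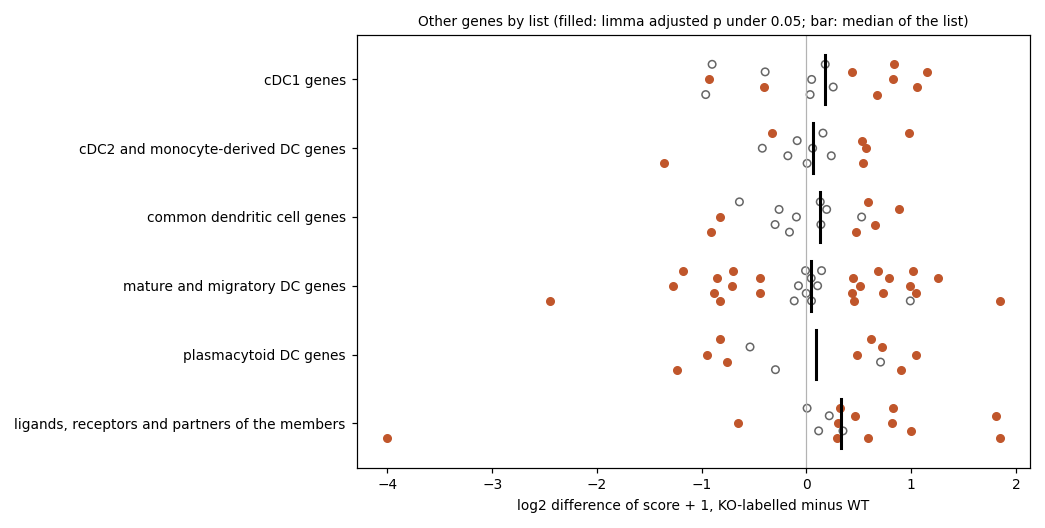
Log2 difference of score + 1 between KO-labelled and WT tumors (x axis) for the genes of 6 further lists (rows); each point is a gene, filled where limma adjusted p was under 0.05, and bars are list medians. All medians lie between 0.05 and 0.33 while single genes spread to both sides; the point at -4.00 is Ackr4, which is listed at 0 in 4 KO-labelled tumors.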

How the data were processed

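RNA was measured in 10 whole tumors, 5 WT and 5 Siah2 KO. As the paper's methods and the submitters' processing notes state, single-end reads were checked with FastQC, aligned to mm10 with STAR, counted with featureCounts and normalized with edgeR in SARTools. No source used here gives their versions, the annotation or the strand setting. The score deposited by the authors for each gene and library is the normalized count rounded to a whole number. It is not a raw count, so no count test was run and no counting interval is given. The 11495 genes at 0 in every column were left out, and mean scores of the rest had a median of 553.2.

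Differences in log2(score + 1) were tested by limma 3.58.1 under R 4.3.3 (genotype only, mean-variance trend, two-sided, Benjamini-Hochberg adjustment over 12926 genes, threshold 0.05). The fit was also run on simulated data in which both groups had a spread taken from the WT tumors. That run does not cover the wider spread of the KO-labelled tumors. Adding 1 understates the change of low genes. Ratios used exact permutation tests in scipy 1.17.1. The labels call the samples separate tumors but tie them to no litter or day. Gene spans and exon lengths are from GENCODE M21. Members, gene lists and tests were chosen with earlier results of these data known. From each list the 4 genes with the smallest p among those that passed were named, and all partners of the members; Icam3 and 2 marker genes (Trac and Ighm) did not match a row. Other named genes are marked. A few genes of the marker lists are not reported here by name. Keratinocyte genes (1 of 8 measured) and lymph node or lymphatic genes (3 of 9 measured, Lyve1 7.59-fold lower and Pdpn 2.24-fold higher) were read as tissue markers.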

Additional observations from a re-analysis of the deposited data

Results flagged for a closer look

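In 30 groups of 5 tumors (10 members, Siah2 and 4 ratios, each in WT and KO-labelled tumors), 2 held a tumor far from the others by Dixon's test; chance gives about 1 in 20. Fscn1 was 3596 in column KO5, where the other KO-labelled tumors lay between 2785 and 2975, and this tumor was still below all WT tumors. The log2 ratio of Cd80 to Cd86 was -0.78 in column KO4, against -0.25 to -0.16 in the other KO-labelled tumors, and without KO4 the difference between groups was -0.34.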

How the results depend on the processing

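The depth of each library was not recovered from the rounded scores, and rounding weighs most on low members such as Zbtb46, Xcr1 and Cd209a. The SE of the log2 difference did not follow the score alone. It was largest for Cd209a (0.34) and Ccr7 (0.29), then Batf3 (0.24), Xcr1 (0.22) and Zbtb46 (0.21). Over other pseudocounts, filters, scalings, spreads and sets of tumors, Flt3, Cd209a, Fscn1 and Cd86 passed in the same direction in all 12 alternatives and each time 1 tumor was left out. With 1 tumor left out, 3649 to 5182 genes passed, 1 to 2 members were higher and 4 to 5 lower. With scores scaled to the same total, 1 member was higher and 38.6% of the genes called were higher, against 49.0%. With the exact permutation test, 3 members were lower (Ccr7 and Zbtb46 did not pass). Zbtb46, with a mean under 50, could not be tested with the filter at 50. Leaving out KO1 and KO5 together was chosen after seeing the data, as the lowest KO-labelled tumors in Ccr7, and they are also the lowest in Batf3, so this alternative bears on neither gene.

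WT and KO titles share replicate numbers, but only numbers 2 and 3 belong to columns in both groups. The deviations of same-numbered tumors correlated at 0.035 and 0.050. Such correlations cannot settle whether tumors with numbers 2 and 3 share more than a number, as the labels give no litter or day. With the replicate block on these 4 tumors, 3902 genes passed, 1 member was higher and 4 were lower (Zbtb46 and Cd80 lost their calls), and the log2 difference of Xcr1 was -0.040. The same 4 tumors with no replicate block, also chosen after seeing the data, gave 2938 genes, 1 member higher and 3 lower (Zbtb46, Ccr7 and Cd80 lost their calls), and -0.040 for Xcr1.

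The Flt3/Zbtb46 difference changed sign with a pseudocount of 10 (-0.070) and ranged from -0.13 to 0.26 with 1 tumor left out, and that of Ccr7/Fscn1 from -0.50 to -0.02. With 1 tumor left out, the Cd80/Cd86 difference ranged from -0.49 to -0.34 and that of Xcr1/Cd209a from 1.80 to 2.45, and each lost its call in 8 of 10 cases. The Cd80/Cd86 and Xcr1/Cd209a ratios did not pass without KO4 and KO5 (-0.34 and 1.81, adjusted p = 0.143 for both by exact permutation), where 8 tumors allow no p below 0.0357. With a pseudocount of 10 the counts of genes called in the 15 lists were the same.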
